A study of Mus musculus with 4 samples.

Results

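Reelin is a large secreted glycoprotein that binds a pair of lipoprotein receptors, and 6 genes of this pathway are described here: the ligand gene Reln, the receptor genes Vldlr and Lrp8 (which encodes ApoER2), and the adaptor genes Dab1, Crk and Crkl. They were chosen by gene symbol from their known roles, and all 6 were found among the 20032 genes of the deposited table. Binding of reelin clusters the receptors, Src family kinases then phosphorylate the cytoplasmic adaptor Dab1, and phosphorylated Dab1 recruits Crk and Crkl, which signal onward to the cytoskeleton and to adhesion. In the olfactory bulb, where odour signals from the nose are first processed, mitral cells make reelin, and the protein is known for detaching migrating neuroblasts from their chains so that they can spread into the bulb.

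Whole olfactory bulb RNA was sequenced in 4 libraries at postnatal day 11, on a background mixed from C57BL/6J, 129S6 and CD1. There were 2 libraries of Sp8/Sp9-DCKO mice, which carried the Dlx5/6-CIE transgene with Sp8 Flox/Flox and Sp9 Flox/Flox, and 2 libraries of littermate controls without Cre. Dlx5/6-CIE places Cre under an enhancer of Dlx5 and Dlx6 that is active in GABAergic precursors, so both floxed zinc finger transcription factor genes are removed in that lineage and not throughout the bulb. The labels do not say which floxed alleles the controls carried, or whether each library is from its own animal. The p-values reflect the spread among the deposited samples, which may be technical.

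Values are FPKM, fragments per kilobase of transcript scaled to the mapped fragments of the library. Changes are differences of log2(FPKM + 1), DCKO minus control, from limma over the 13434 genes averaging 1 FPKM or more, and a gene was called at a Benjamini-Hochberg adjusted p below 0.05. The deposited scaled fragment counts summed to 14632502 to 14899179 in DCKO and to 15033308 to 15400982 in controls. The targeted genes were strongly reduced. Sp8 stood at 1.68 and 2.03 FPKM in DCKO against 31.96 and 26.7 FPKM in controls, and Sp9 at 0.0674 and 0.236 FPKM in DCKO against 24.0 and 30.7 FPKM in controls. Over all tested genes, 13.0% were called higher and 14.3% lower in DCKO, 27.3% together, and the median log2 change was -0.02. With the medians of the libraries equalised, 2225 genes were higher and 1580 lower, against 1747 higher and 1926 lower as deposited.

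Reln rose 2.58-fold in DCKO bulbs, Lrp8 fell to 46.1% of the control mean and Dab1 fell to 71.2% of it. Vldlr, Crk and Crkl did not pass the test, with DCKO means at 104% to 113% of the control means. Thus 1 of the 6 genes was called higher and 2 lower, against 13.0% and 14.3% of all tested genes. All 6 passed the filter on low values, and the FPKM of 5 of the 6 did not overlap between the genotypes, as for 71.5% of all tested genes. Of these, 3 were higher in DCKO, against 33.9% of all tested genes, and 2 were lower, against 37.6%. The plot of FPKM by library shows these values.

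**Figure D1:**
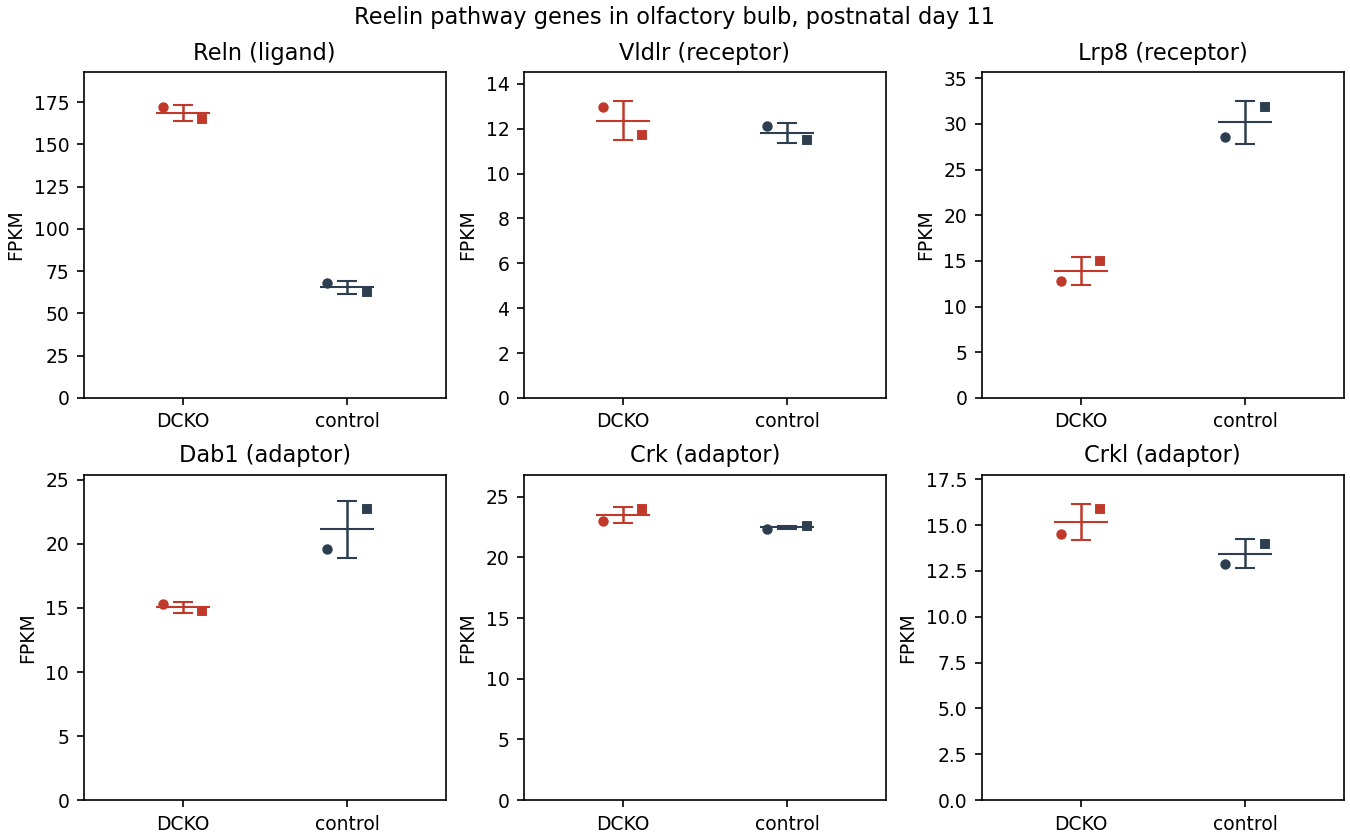
FPKM of the 6 reelin pathway genes in each library, DCKO at the left and control at the right of each panel, with replicate 1 as circles, replicate 2 as squares, and horizontal marks with bars for the mean ± SD (n = 2 per genotype). Reln is at 165 to 172 FPKM in DCKO against 62.5 to 68.2 FPKM in controls, Lrp8 and Dab1 are lower in both DCKO libraries, and the Vldlr values of the genotypes overlap.

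Reln, the gene for the ligand, lies on chromosome 5, 21884454 to 22344702 (GRCm38, - strand, protein-coding). It stood at 172 and 165 FPKM in DCKO and at 68.2 and 62.5 FPKM in controls. Both DCKO libraries were far above both controls, and the libraries of each genotype were close together. The means were 169 ± 4.87 FPKM in DCKO and 65.3 ± 4.08 FPKM in controls (SD, n = 2 per genotype), with a log2 change of 1.35 (SE 0.07 and 95% confidence interval 1.16 to 1.55, limma adjusted p = 0.00126). By FPKM, Reln ranked 292 and 306 among the 13434 tested genes in DCKO, against 902 and 1014 in controls. A change at least as large upward was seen in 67 tested genes, or 0.499% of them. Reln was called in each of the 14 alternative analyses, with log2 changes of 1.29 to 1.42 and limma adjusted p of 0.000706 to 0.0240.

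The receptor genes differed from each other. Lrp8 (chromosome 4, 107802261 to 107876840, + strand, protein-coding) encodes ApoER2, a receptor of neurons. It stood at 12.9 and 14.999 FPKM in DCKO and at 28.5 and 31.8 FPKM in controls. Both DCKO values were far below both control values, and the genotypes did not overlap. It changed by -1.07 on the log2 scale with an SE of 0.10 (95% confidence interval -1.33 to -0.80, lower in 2 of 2 DCKO libraries), at a limma adjusted p of 0.00483. A decrease at least as large was seen in 436 tested genes, or 3.25% of them. The Lrp8 call held in each of the 14 alternatives, with log2 changes of -1.17 to -0.96 and limma adjusted p of 0.00159 to 0.0369.

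Vldlr (chromosome 19, 27216484 to 27254231, + strand, protein-coding), the gene for the very low density lipoprotein receptor, stood at 12.96 and 11.7 FPKM in DCKO and at 12.1 and 11.5 FPKM in controls. These values overlapped between the genotypes. The log2 change of 0.06 did not pass the test (SE 0.08, 95% confidence interval -0.16 to 0.27, limma adjusted p = 0.627), and this interval lies apart from that of Lrp8. The interval leaves room for changes of Vldlr in either direction within its bounds.

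The balance between the receptor transcripts therefore differed between genotypes. Per length, Vldlr was at 1.01 and 0.782 of the Lrp8 level in DCKO and at 0.425 and 0.361 of it in controls. Lrp8 made up 49.8% and 56.1% of the summed FPKM of both receptors in DCKO, against 70.2% and 73.5% in controls. In DCKO the receptor transcripts were near parity, and in controls Lrp8 was the more abundant one. The log2 ratio of Vldlr to Lrp8 was higher by 1.18 in DCKO, and the values did not overlap (exact permutation test, two-sided p = 0.333, the smallest p that 2 against 2 libraries allow).

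Set against its receptors, the ligand transcript was more abundant in DCKO. The summed FPKM of Lrp8 and Vldlr was 25.8 and 26.7 in DCKO and 40.7 and 43.4 in controls. Reln was at 6.66 and 6.18 times that sum in DCKO, against 1.68 and 1.44 times in controls. These are ratios of RNA in the whole bulb and carry no measure of secreted protein or of surface receptor.

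Dab1 (chromosome 4, 103619359 to 104744844, + strand, protein-coding), the adaptor that binds the cytoplasmic tails of both receptors, stood at 15.3 and 14.7 FPKM in DCKO and at 19.6 and 22.7 FPKM in controls. The DCKO libraries were close together and below both controls, which differed more. Dab1 changed by -0.46 on the log2 scale with an SE of 0.09 (95% confidence interval -0.70 to -0.22), at a limma adjusted p of 0.0260. Changes at or below that of Dab1 were seen in 10.9% of all tested genes. Dab1 no longer passed when control replicate 2 was left out (limma adjusted p = 0.116), without DCKO replicate 1 (0.0680), without DCKO replicate 2 (0.0745) and with no filter on low values (0.0742), while the log2 change stayed between -0.64 and -0.36 over the 14 alternatives.

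Dab1 stood out from the other 5 genes in the relation of its fragment counts to its FPKM. Its scaled counts were 1428 and 1320 in DCKO and 2019 and 2278 in controls, a log2 change of -0.64 (limma adjusted p = 0.00666 on the scaled counts). The scaled count behind each unit of FPKM grows with the transcript length that the authors' software assigned. Relative to the median gene of the library, this quantity was 1.79 and 1.76 for Dab1 in DCKO, against 2.03 and 1.95 in controls. The DCKO values were lower and did not overlap with those of the controls. The log2 difference of -0.16 was matched or exceeded in size by 0.425% of the 13401 genes with values above 0 in each library, whereas for Reln, Vldlr, Lrp8, Crk and Crkl the share was 45.1% to 97.1%. Values for single Dab1 transcripts were not analysed here.

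Crk and Crkl are adaptors with SH2 and SH3 domains that bind phosphorylated Dab1 and are used by many other pathways. Crk (chromosome 11, 75679259 to 75706908, + strand) stood at 23.0 and 23.95 FPKM in DCKO and at 22.4 and 22.6 FPKM in controls. Both DCKO values were slightly higher, and the log2 change of 0.06 did not pass the test (95% confidence interval -0.11 to 0.23, limma adjusted p = 0.50). Crkl (chromosome 16, 17451987 to 17487434, + strand) stood at 14.5 and 15.9 FPKM in DCKO and at 12.9 and 13.99 FPKM in controls. Its values did not overlap either, and the log2 change of 0.16 did not pass (95% confidence interval -0.05 to 0.38, limma adjusted p = 0.202). Per length, Crkl was at 0.629 and 0.662 of the Crk level in DCKO and at 0.576 and 0.620 of it in controls (exact permutation test, two-sided p = 0.333). None of Vldlr, Crk and Crkl was called in any of the 14 alternatives.

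The order of the levels, which FPKM allows because it is per length, differed between the genotypes below the first place. In DCKO the order was Reln, Crk, Crkl, Dab1, Lrp8 and Vldlr, with means of 169, 23.5, 15.2, 15.04, 13.9 and 12.3 FPKM. In DCKO, neighbours from Crkl to Vldlr had overlapping values, so their order is not resolved. In controls the order was Reln, Lrp8, Crk, Dab1, Crkl and Vldlr, with means of 65.3, 30.2, 22.5, 21.1, 13.4 and 11.8 FPKM. In controls, Crk and Dab1 were the neighbours whose values overlapped.

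**Figure D2:**
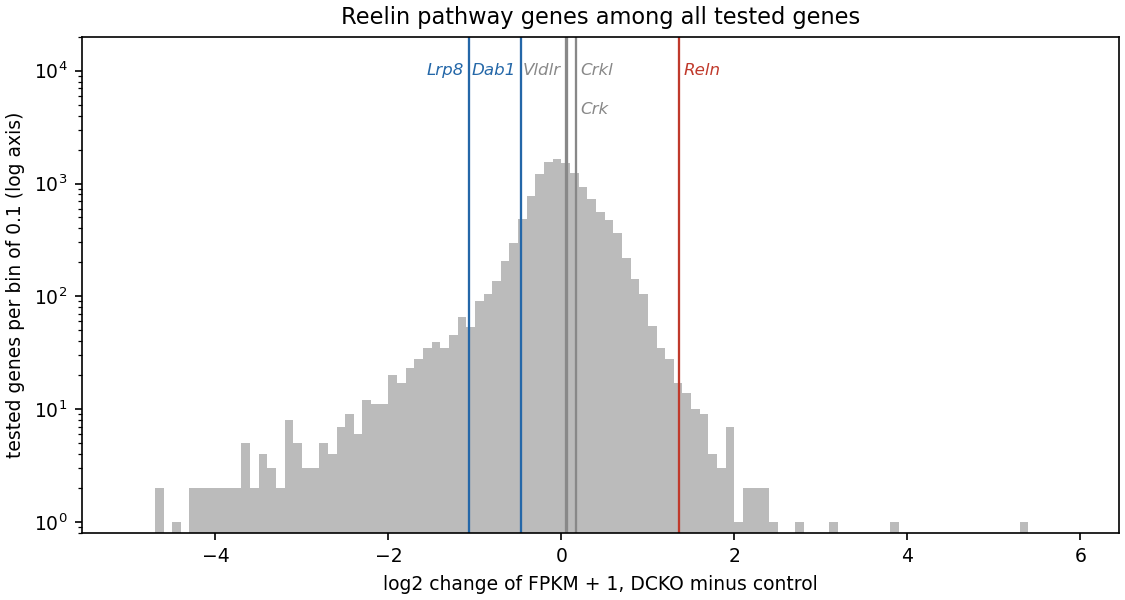
Histogram of the log2 change of FPKM + 1, DCKO minus control, over the 13434 tested genes in bins of 0.1, with a log axis for the number of genes and a vertical line for each reelin pathway gene (red higher, blue lower, grey not called). Reln at 1.35 and Lrp8 at -1.07 lie in the flanks, and Vldlr and Crk, both at 0.06, share nearly 1 line near the centre.

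By profile over the 4 libraries, the genes most like each member were found as those with the smallest Euclidean distance between log2(FPKM + 1) values centred on each gene's mean. Genes with clone, predicted or numeric symbols were left out of this search, so nearer profiles among them are not listed. For Reln these were Id3 (distance 0.0926), Tmsb15l (0.124) and Susd2 (0.130). For Lrp8 they were Rassf8 (0.0559), Ppm1e (0.0629) and Adcyap1r1 (0.0632). For Dab1 they were Aste1 (0.0135), Adora2a (0.0192) and Ddc (0.0426). For Vldlr they were Ikbkg (0.0127), Alg11 (0.0157) and Avl9 (0.0185), for Crk Txndc9 (0.0060), Unc50 (0.0097) and Coq5 (0.0122), and for Crkl Rrm2b (0.0172), Rpl14 (0.020) and Vegfb (0.0225). With 4 libraries in 2 genotypes, such a profile is mostly the size of the change.

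Promoter windows of Reln and of the genes that fell are shown because these are the genes that moved, and because the GC box GGGCGG is the motif best known for Sp family factors such as Sp1. The windows are RefSeq's (GRCm38.p6), each 250 bases before to 50 after a start site, and all 6 genes matched. Capitals mark GGGCGG or its reverse complement CCGCCC, searched without regard to overlap with other motifs.
Reln, chr5:22344656-22344955, - strand: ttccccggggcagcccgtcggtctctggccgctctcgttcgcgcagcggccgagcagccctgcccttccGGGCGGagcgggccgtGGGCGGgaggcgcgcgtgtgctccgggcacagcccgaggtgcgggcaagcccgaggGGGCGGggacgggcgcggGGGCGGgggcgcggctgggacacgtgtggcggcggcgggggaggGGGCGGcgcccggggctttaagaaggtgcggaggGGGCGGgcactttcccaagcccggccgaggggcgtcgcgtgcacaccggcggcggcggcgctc
Lrp8, chr4:107802635-107802934, + strand: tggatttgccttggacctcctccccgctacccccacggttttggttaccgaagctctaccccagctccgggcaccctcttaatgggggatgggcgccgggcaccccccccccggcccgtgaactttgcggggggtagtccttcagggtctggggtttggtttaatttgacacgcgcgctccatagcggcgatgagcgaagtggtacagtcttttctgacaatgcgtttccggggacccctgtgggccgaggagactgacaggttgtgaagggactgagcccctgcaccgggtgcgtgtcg
Dab1, chr4:103619250-103619549, + strand: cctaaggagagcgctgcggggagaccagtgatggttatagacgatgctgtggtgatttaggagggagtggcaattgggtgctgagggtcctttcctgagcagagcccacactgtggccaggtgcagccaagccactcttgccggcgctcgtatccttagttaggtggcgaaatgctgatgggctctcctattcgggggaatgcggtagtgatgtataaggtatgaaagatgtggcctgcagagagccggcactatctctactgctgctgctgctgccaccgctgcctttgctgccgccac
The Reln window holds 6 matches, all reading GGGCGG on the strand shown, and 1.35% of the 32851 windows in the table hold at least 6. The Reln window is 80.7% G and C, the Lrp8 window shown 62.7% and the Dab1 window shown 57.3%, against a median of 52.7% over all windows. The motif is itself all G and C, and the share among windows of like G and C content was not calculated. The Lrp8 and Dab1 windows shown hold 0 matches, as do the other 2 Lrp8 windows. The second Dab1 window, which starts at 104367288 and is 77.3% G and C, holds 1. The start sites of the Lrp8 windows lie 624, 20900 and 28692 bases from the GENCODE gene start, against 3 bases for Reln. No Lrp8 window covers that gene start, so its sequence was not searched. Crk and 1 of 2 Vldlr windows hold 1 match and Crkl holds 0, and 35.7% of all windows hold at least 1. A match is a description of these letters, and binding of Sp8 or Sp9 was not measured in these data.

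Mitral and tufted cells, the projection neurons of the bulb, are the main makers of reelin there, and their markers were higher in DCKO as well. Of 7 markers measured, 6 rose, 0 fell and 1 did not pass, with a median log2 change of 1.05 against -0.02 over all genes. Their summed FPKM was 1400.0 to 1652 in DCKO and 857 to 926 in controls, and no marker was at 0. The T-box factor Tbx21 stood at 84.7 and 92.5 FPKM in DCKO and at 27.4 and 30.7 FPKM in controls (log2 change 1.58, limma adjusted p = 0.00130). The T-box factor Tbr1 (1.23), the vesicular glutamate transporter Slc17a6 (1.15) and the T-box factor Eomes (1.05) also rose. Doc2g, at 211 and 123 FPKM in DCKO and 180 and 178 FPKM in controls, had a log2 change of -0.15 and did not pass. The change of Reln (1.35) was thus within the range of the markers that rose, 0.80 to 1.58.

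Set against the mean log2 level of the 7 markers, Reln was higher by 0.68 and 0.77 in DCKO and by 0.46 and 0.21 in controls. The difference in log2 ratio was 0.39 and the libraries did not overlap (exact permutation test, two-sided p = 0.333). The mean includes Doc2g, which did not rise (log2 change -0.15) and so adds to this difference, and the ratio without Doc2g was not calculated. As a linear ratio, Lrp8 stood at 0.120 and 0.155 times the geometric mean FPKM of the 7 markers in DCKO, against 0.576 and 0.590 in controls. Genes that were not called were lower against these rising markers as well. The differences in log2 ratio were -0.92 for Vldlr, -0.92 for Crk and -0.81 for Crkl, against -2.10 for Lrp8 and -1.47 for Dab1. In whole-bulb RNA, fewer cells of a type and less RNA per cell cannot be told apart, and neither can more cells and more RNA per cell. FPKM is also a share of each library. A higher FPKM of any gene, Reln included, can thus reflect less RNA from other cells without more RNA of that gene. This was not tested. The part of the mitral and tufted cells in the change of Reln was not tested.

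Other cells that make reelin or that differed between genotypes were looked at by their markers. For Cajal-Retzius cells, early neurons of the cortical surface that secrete reelin, Trp73, Lhx1 and Lhx5 were taken as markers. Whether other cells of the bulb, mitral and tufted cells included, express these genes was not measured in these data. Trp73 stood at 3.54 and 2.74 FPKM in DCKO and at 1.07 and 1.15 FPKM in controls (log2 change 0.96, limma adjusted p = 0.0134, or 0.0505 with no filter on low values). Lhx1 and Lhx5 lay below the filter, and the 3 markers summed to 4.51 to 5.19 FPKM in DCKO and 1.32 to 2.05 FPKM in controls. Of 4 markers of cortical projection neurons, Neurod2 rose (9.62 and 5.58 FPKM in DCKO, 1.25 and 2.25 FPKM in controls, limma adjusted p = 0.0195), 2 did not pass and 1 lay below the filter. The Neurod2 call was lost without DCKO replicate 1 (adjusted p = 0.0584) and with no filter (0.0861). The 4 markers summed to 12.8 to 16.9 FPKM in DCKO and 5.21 to 6.54 FPKM in controls. None of these markers was at 0, and their part in the change of Reln was not tested.

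Reelin is known for detaching neuroblasts from their chains, and most markers of neuroblasts and of the interneurons they become fell. Which cells of the bulb express the receptors and Dab1 was not measured in these data. All 6 interneuron markers fell, with a median log2 change of -2.98 and a summed level of 69.3 to 105 FPKM in DCKO against 615 to 653 FPKM in controls. The largest log2 changes were those of Penk, the enkephalin precursor (-3.64), the vesicle protein Synpr (-3.10), the homeobox factor Meis2 (-3.02) and the vesicular GABA transporter Slc32a1 (-2.95). Of 5 neuroblast markers, 4 fell and Sox11 (-0.33) did not pass, with a median of -0.91 and sums of 60.5 to 99.1 FPKM in DCKO and 211 to 217 FPKM in controls. Their log2 changes were -2.099 for Dcx, which binds microtubules in young neurons, -1.78 for the homeobox factor Dlx2, -0.91 for Igfbpl1 and -0.89 for the surface protein Cd24a. Cd24a lost its call in 6 of 14 alternatives, namely without control replicate 2, without DCKO replicate 1, with no filter, with median scaling, with quantile normalization and with no intensity trend (limma adjusted p up to 0.147). Dlx2 (0.0763) and Igfbpl1 (0.1003) lost theirs with no filter.

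Relative to the interneuron markers, Lrp8 was higher in DCKO, and relative to the neuroblast markers it overlapped. Lrp8 stood at 1.37 and 1.03 times the geometric mean FPKM of the interneuron markers in DCKO, against 0.315 and 0.362 times in controls. Against the geometric mean of the neuroblast markers it stood at 1.18 and 0.832 times in DCKO and at 0.857 and 0.942 times in controls. Dab1 stood at 1.64 and 1.01 times the geometric mean of the interneuron markers in DCKO, against 0.216 and 0.258 times in controls. Against the neuroblast markers Dab1 stood at 1.41 and 0.817 times their geometric mean in DCKO and at 0.588 and 0.671 times in controls. These ratios were chosen after the values were seen and carry no test here, and the part of these cells in the changes of Lrp8 and Dab1 was not tested.

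**Figure D3:**
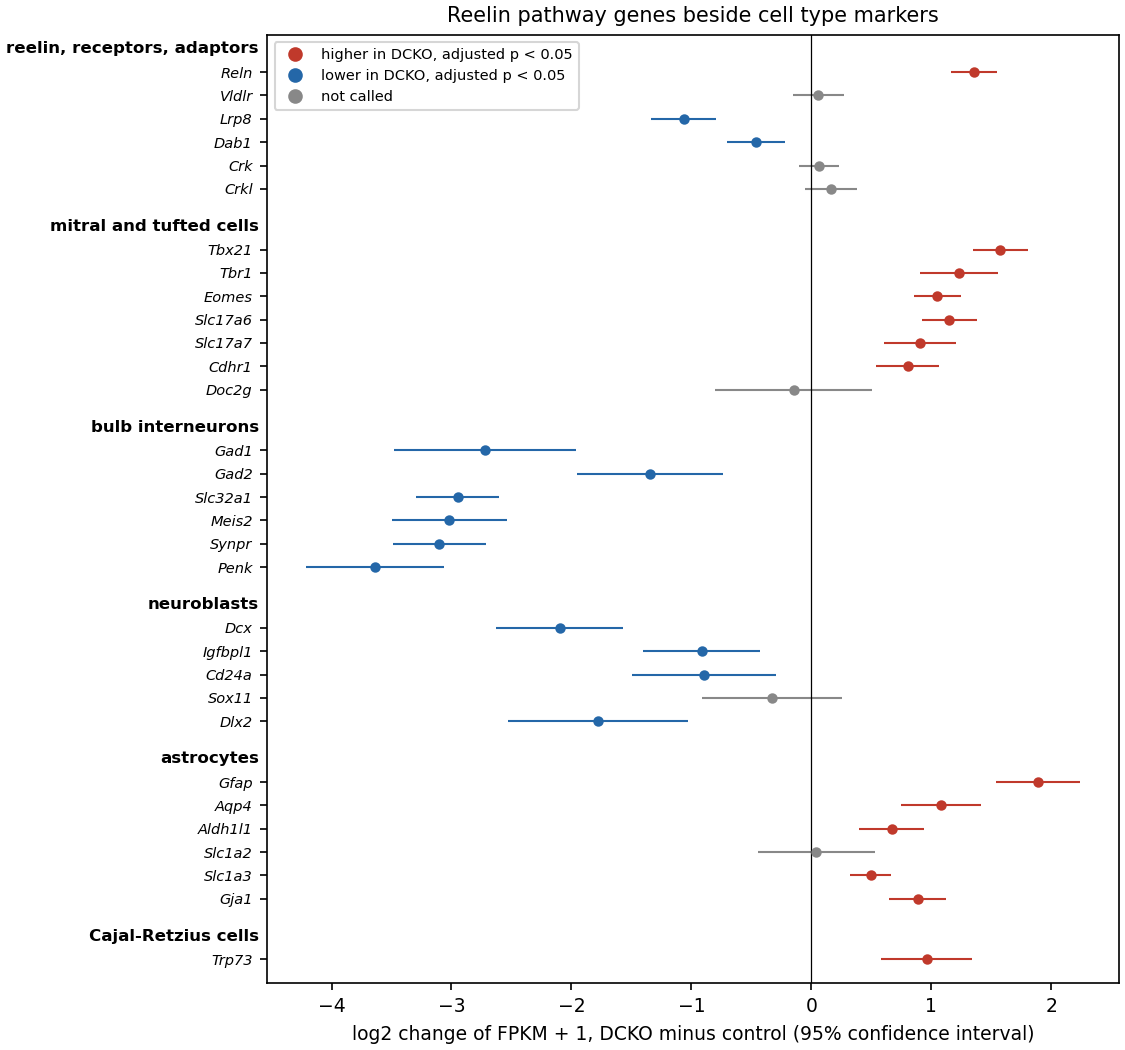
Log2 change of FPKM + 1, DCKO minus control, with its 95% confidence interval from limma, for the 6 reelin pathway genes and for markers of 5 cell types that passed the filter (red higher, blue lower, grey not called). Reln at 1.35 lies among the mitral and tufted markers that rose, at 0.80 to 1.58, and Lrp8 at -1.07 lies above the interneuron markers, at -3.64 to -1.35.

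Among glial, vascular and blood markers, 5 of 6 astrocyte markers rose, led by Gfap (1.89), Aqp4 (1.08), Gja1 (0.89) and Aldh1l1 (0.67), and they summed to 927 to 985 FPKM in DCKO and 514 to 519 FPKM in controls. Of 6 microglia markers 3 rose, namely Aif1 (0.73), Csf1r (0.50) and Cx3cr1 (0.46). The others, P2ry12 (-0.03), Tmem119 (-0.004) and Itgam (-0.04), did not pass and overlapped between the genotypes. The 6 markers summed to 66.1 to 70.5 FPKM in DCKO and 53.4 to 55.4 FPKM in controls. Of 5 endothelial markers Tek (0.51) and Cldn5 (0.37) rose, with sums of 149 to 149.8 FPKM in DCKO and 112 to 116 FPKM in controls. Of 5 oligodendrocyte markers 0 were called by limma, although 1 had an unadjusted p below 0.05, with Mbp at 444 and 174 FPKM in DCKO and 265 and 394 FPKM in controls. Of 3 blood markers Alas2 rose (1.87), and Hbb-b1 was at 19.5 and 67.9 FPKM in DCKO and 21.3 and 18.04 FPKM in controls. The calls of Csf1r, Cx3cr1 and Cldn5 were lost without either control, that of Aif1 without control replicate 2 or DCKO replicate 2, and that of Tek without either control or DCKO replicate 2 (highest adjusted p = 0.145). With no filter, Aldh1l1, Aif1, Csf1r and Tek lost their calls as well (highest adjusted p = 0.109). The part of these cells in the reelin pathway changes was not tested.

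Beyond these 6 genes, 55 other genes of the pathway were listed in 9 groups from general knowledge. Of these, 54 passed the filter, 9 rose, 9 fell and 36 did not pass the test. Over the 9 groups pooled, the share called in each direction was thus close to the background of 13.0% and 14.3%. The groups were not alike. Of 6 genes for reelin cleavage 1 rose and 3 fell, and all 4 genes for other ligands rose. Of 5 further surface proteins 3 rose and 1 fell, against 27.3% of all tested genes called in either direction. Of 4 trafficking genes that passed the filter 1 rose. Of the 35 genes in the 5 groups of intracellular proteins, 5 fell, a share equal to that over all tested genes. None of them rose (0 of 35), against 13.0% of all tested genes.

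Reelin is cut at several sites by proteases. Of 6 protease genes listed for this, 3 fell and 1 rose, against 14.3% and 13.0% of all tested genes. Adamts3, the main N-terminal protease, stood at 1.05 and 0.642 FPKM in DCKO and at 3.50 and 3.63 FPKM in controls (log2 change -1.32, limma adjusted p = 0.00748). Adamts5 stood at 1.07 and 1.05 FPKM in DCKO and at 2.87 and 2.90 FPKM in controls (-0.92, limma adjusted p = 0.00890). The proprotein convertase Furin fell by 0.42 on the log2 scale (limma adjusted p = 0.0175). Plat, the tissue plasminogen activator, rose and stood at 44.2 and 31.6 FPKM in DCKO against 20.8 and 19.5 FPKM in controls (0.86, limma adjusted p = 0.0232). Adamts2 (0.82) and Adamts4 (-0.42) did not pass.

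All 4 genes for other ligands of these receptors rose, against 13.0% of all tested genes, with a median log2 change of 0.58. The call of Apoe, however, was lost in 7 of 14 alternatives. Sepp1, selenoprotein P and a ligand of ApoER2, stood at 293 and 329 FPKM in DCKO and at 196 and 182 FPKM in controls (0.71, limma adjusted p = 0.00893). Thbs1, thrombospondin 1, stood at 4.52 and 4.23 FPKM in DCKO and at 2.42 and 1.30 FPKM in controls (0.94, limma adjusted p = 0.0326). Clu, clusterin, rose by 0.45 and Apoe, apolipoprotein E, by 0.37 on the log2 scale, and the Apoe change turned to -0.09 with quantile normalization. Apoe and Clu are also made by astrocytes, whose markers rose with them, and the part of these cells was not tested.

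Of 5 further surface proteins described to bind reelin, 3 rose and 1 fell, against 13.0% and 14.3% of all tested genes. The integrin subunit Itgb1 (0.58), Efnb1 (0.55) and Efnb2 (0.51) rose, while Efnb3, another ephrin-B, fell by 0.64 on the log2 scale (limma adjusted p of 0.00890 to 0.0220 for these 4). Itga3 (0.28) did not pass. Of 5 genes for receptor turnover and trafficking, Lrpap1, the chaperone of the receptor family, rose (45.7 and 45.2 FPKM in DCKO, 33.995 and 34.6 FPKM in controls, log2 change 0.40, limma adjusted p = 0.0134). Mylip, which promotes receptor degradation, and the sorting nexin Snx17 did not pass.

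The intracellular groups are read against the 27.3% of all tested genes that were called. By limma, 0 of 3 Src family kinases were called (0 at an unadjusted p below 0.05), with Fyn, the main Dab1 kinase, at 74.1 and 66.9 FPKM in DCKO and 74.4 and 77.7 FPKM in controls, and Src at 42.1 and 40.3 FPKM in DCKO and 39.3 and 38.9 FPKM in controls. Likewise 0 of 4 genes for Dab1 turnover were called (0 unadjusted), with Rnf7 (-0.01) and Socs7 (-0.05) the most abundant, both of which took a small positive sign under median scaling. Of 7 genes from the exchange factor Rapgef1 through Rap1 to adhesion 0 were called (2 at an unadjusted p below 0.05), among them Rap1b (-0.07) and the cadherin Cdh2 (-0.08). Of 10 genes of the PI3K, Akt and Gsk3 arm, the regulatory subunit Pik3r2 (-0.47, limma adjusted p = 0.00896) and the kinase Gsk3a (-0.24, adjusted p = 0.0461) fell and 8 did not pass. Gsk3a kept its call in 3 of 14 alternatives, and lost it under each of the 3 scalings among others (highest adjusted p = 0.273). Of 11 genes of the cytoskeletal arm, the adaptor Nck2 (-0.50), the Cdk5 activator Cdk5r2 (-0.47) and the cofilin kinase Limk1 (-0.38) fell (limma adjusted p of 0.0241 to 0.0423) and 8 did not pass.

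Of the 18 pathway calls, 7 held when each of the 4 libraries was left out in turn: Adamts3, Adamts5, Plat, Sepp1, Itgb1, Efnb3 and Pik3r2. The calls of Clu, Furin, Lrpap1 and Cdk5r2 were lost without either control (highest adjusted p = 0.110), and that of Thbs1 without either DCKO library (0.115). Efnb1 lost its call without control replicate 2 (0.0761), and Efnb2 and Nck2 without control replicate 1 or either DCKO library (highest 0.104). Limk1 lost it without either control or DCKO replicate 1 (highest 0.160), and Apoe and Gsk3a without each of the 4 libraries in turn (highest 0.421). With no filter on low values, the calls of Sepp1, Itgb1, Lrpap1, Adamts3, Adamts5, Furin, Efnb3 and Pik3r2 held and those of the other 10, Plat among them, were lost. Cdk5r2 also lost its call with quantile normalization and with no intensity trend.

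**Figure D4:**
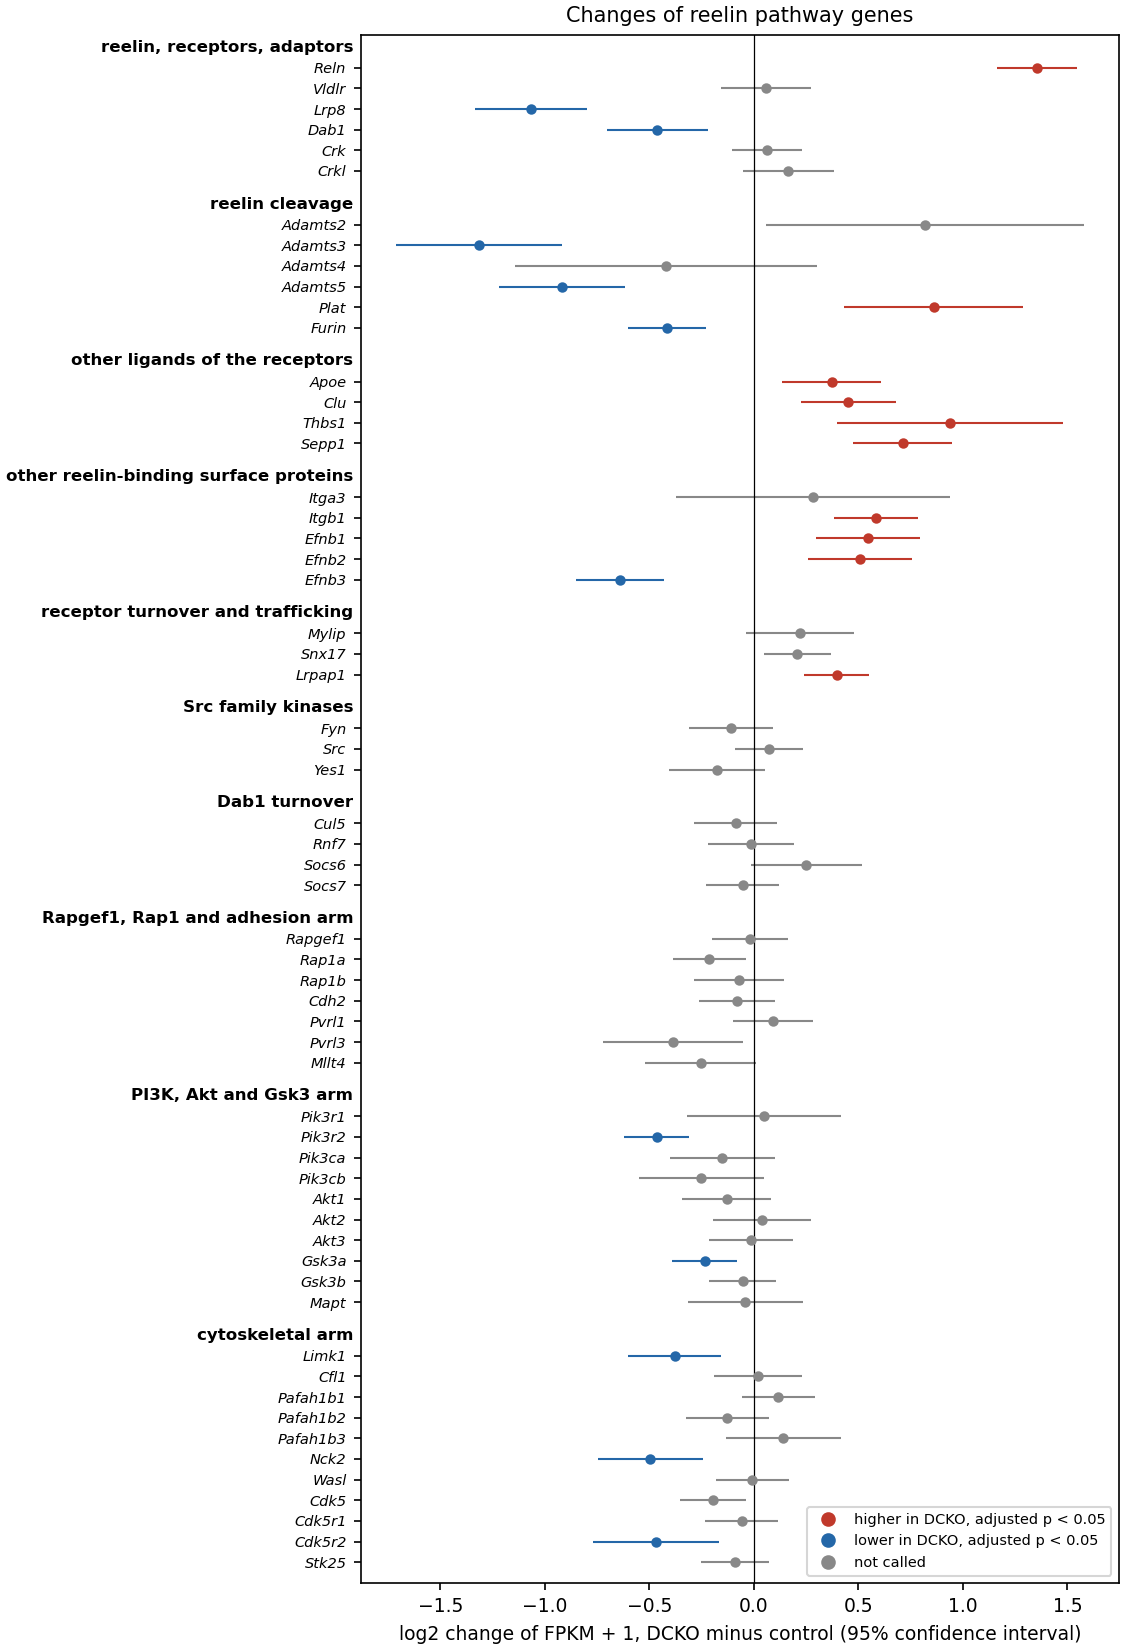
Log2 change of FPKM + 1, DCKO minus control, with its 95% confidence interval from limma, for the 6 reelin pathway genes and 53 of the 54 further pathway genes that passed the filter, in 9 groups (red higher, blue lower, grey not called). Of the 54 genes 9 rose and 9 fell, from Adamts3 at -1.32 to Thbs1 at 0.94, against 27.3% of all tested genes called in either direction.

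Vldlr and Lrp8 belong to the LDL receptor family, and of 11 relatives measured 10 passed the filter, 1 rose and 2 fell, with a median log2 change of 0.01. Over all tested genes, 13.0% were called higher and 14.3% lower, so the relatives were near the background. Lrp4 stood at 15.7 and 14.6 FPKM in DCKO and at 9.15 and 8.32 FPKM in controls (0.73, limma adjusted p = 0.00716). Lrp12, another relative, stood at 10.8 and 11.5 FPKM in DCKO against 18.0 and 17.1 FPKM in controls (-0.61, limma adjusted p = 0.00801). Sorl1, a sorting receptor, fell by 0.28 on the log2 scale (adjusted p = 0.0460), and kept its call in 4 of 14 alternatives, losing it without each of the libraries in turn and under each of the 3 scalings among others (highest adjusted p = 0.273). The decrease of Lrp8 was the largest in size among Lrp8, Vldlr and these 10 relatives.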

How the data were processed

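Whole-bulb RNA of 2 DCKO and 2 control samples at postnatal day 11 was measured by RNA sequencing, and columns were matched to samples by the codes in the sample descriptions (0 unmatched). Per the submitters' processing notes, the authors used TopHat and Cufflinks 2.1.1 on GRCm38.p4. The annotation, the strand setting and the treatment of shared reads were not found in any source used, so antisense genes annotated over Lrp8 and Reln cannot be told apart from them. The FPKM values are the authors', per the file headers. The deposited count columns are treated as a signal scaled by the authors, since in each library 98.7% to 98.9% of its nonzero entries are, to within 0.05, multiples of 1 step, and no count model was used. The sums of this signal bound the precision of each value, and raw depth is not known from them.

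From these, limma 3.58.1 (R 4.3.3) was fitted to log2(FPKM + 1) over all genes averaging 1 FPKM or more, two-sided, with an intensity trend (prior degrees of freedom 2.91) and Benjamini-Hochberg adjustment over all tested genes. The code was tested on simulated data. The log2(FPKM + 1) scale understates changes of low genes. Ratios within a library use FPKM with no pseudocount and exact permutation tests. Positions are GENCODE M21 (GRCm38). The members, lists and tests were chosen with earlier results of these data known. Text names the members, Sp8, Sp9, up to 4 called genes of largest change per list (or, with 0 called, the 2 most abundant), and the 3 nearest profiles per member. Other genes named were chosen after their values were seen. A few listed genes enter the counts and sums and are not reported here by name. Alternatives covered the pseudocount (0.1, 0.5), the filter (none, 5 FPKM), 3 scalings, the intensity trend, a block on replicate number, leaving out each library and, chosen after seeing the data, the scaled counts.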

Additional observations from a re-analysis of the deposited data

How the results depend on the processing

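Reln and Lrp8 kept direction and call in each of the 14 alternatives. With no filter on low values, 732 genes were higher and 1045 lower, 1 of the 6 reelin genes was lower, and 3 pathway genes were higher and 5 lower. Leaving out 1 library gave 806 to 1384 higher and 1030 to 1875 lower genes, 1 or 2 reelin genes lower, and 5 to 7 pathway genes higher and 4 to 9 lower, in fits where a lone sample is assumed to vary like the other group. A block on the replicate number, which the labels do not tie to shared litters or days (correlation of deviations -0.02), gave 1312 higher and 1418 lower genes, the same counts of 1 higher and 2 lower reelin genes, and 8 pathway genes in each direction, with the calls of Apoe (adjusted p = 0.157) and Gsk3a (0.0998) lost, as were those of Sorl1, Tek, Adora2a and Ddc. Apoe turned to -0.087 with quantile normalization. The other turns of sign were in changes not called: Rnf7 at 0.042 with median scaling, 0.040 with quantile normalization and 0.023 with upper-quartile scaling, and Socs7 at 0.0027 and 0.000877 with median scaling and quantile normalization. With 1 library left out, ranges crossing 0 were -0.0093 to 0.124 for Vldlr, -0.0134 to 0.135 for Alg11, -0.000347 to 0.128 for Avl9, -0.0245 to 0.121 for Ikbkg, -0.887 to 0.459 for Mbp, -0.155 to 0.0113 for Rap1b and -0.0932 to 0.0637 for Rnf7. Having 4 libraries limits precision, and the causes of these shifts were not tested.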
